A study of Mus musculus with 11 samples.

Results

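The genes described here build and coat the chylomicron, the particle in which enterocytes export dietary fat. They are Apob, Mttp, Sar1b, Apoa4, Apoa1, Apoc3 and Apoc2, taken by gene symbol from a table of 24294 symbols, and all 7 were found. The libraries come from the small intestine of mice, and RNA-seq was run on 11 of them. The HLJDD group has 4 libraries, and its letters are the initials of Huang Lian Jiedu Decoction, the herbal medicine of the series title, which speaks of obese mice. The HFD group has 4 libraries and the ND group 3. The labels spell out neither HFD nor ND, and they do not say what the HLJDD mice ate, how they were dosed, their strain, sex or age, or which stretch of small intestine was taken. Nor do they say whether the libraries are separate animals. The p-values therefore speak only of spread among these libraries, which may be technical.

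As background, fat taken up by the enterocyte is rebuilt into triglyceride in the endoplasmic reticulum, where the transfer protein encoded by Mttp loads it onto the long apolipoprotein encoded by Apob. The particle leaves for the Golgi in vesicles of the COPII coat, whose assembly is switched on by the small GTPase encoded by Sar1b. Smaller apolipoproteins from Apoa4, Apoa1, Apoc3 and Apoc2 join its surface, and the C proteins later govern how fast lipoprotein lipase empties it.

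Levels are in FPKM, fragments scaled to gene length and library total, so levels of different genes can be set side by side. Each library held 30101888 to 37943272 recovered reads. Mitochondrial transcripts took 40.7% of reads in HLJDD replicate 2, 32.4% in HFD replicate 1 and 10.4% to 19.3% in the other 9. The first 2 stand apart, and the changes of Apob and Mttp are given without them as well. Changes are differences of group means of log2(FPKM + 1), tested with limma over 10764 genes with a Benjamini-Hochberg threshold of 0.05. All 7 genes passed the filter of 1 FPKM in 3 libraries, Apoc2 only through HLJDD and HFD libraries. The median log2 change of all genes was -0.13 for HLJDD against ND, -0.20 for HFD against ND and 0.06 for HLJDD against HFD. Median-ratio scaling brought it to -0.01 for HFD against ND and nearer to 0 for the others, so scaled results stand beside the others where they differ. Enterocyte markers (11 genes, among them Vil1 and Epcam) were present in every library. Their summed levels were 4007 to 7613 FPKM in HLJDD, 4710 to 7850 FPKM in HFD and 6980 to 7831 FPKM in ND. The 11 genes did not move alike, so overlapping sums do not show equal enterocyte content. Alpi, Lct, Krt20 and Treh had their lowest mean in ND, and the others their highest. Mean Alpi was 713 FPKM in HLJDD, 685 FPKM in HFD and 289 FPKM in ND, and mean Anpep 1044, 969 and 2170 FPKM.

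Apoa4 and Apoc3 rose in HFD against ND by limma, 2 of the 6 genes that reached 1 FPKM in ND, and none of the 6 fell. Apoc2 is left out of these counts, since it was tested only because HLJDD and HFD libraries reached 1 FPKM. Over all genes 16.6% were called, 5.06% higher and 11.5% lower (545 and 1241 genes). After scaling 5 of the 6 were higher, all but Apob, where 25.0% of all genes were called, 12.6% higher and 12.5% lower (1351 and 1344 genes). Apoa4 and Apoc3 also rose in HLJDD against ND, where 11.9% of all genes were called and 4.1% were higher. After scaling Mttp joined them, and 19.3% of all genes were called, 9.39% higher. Both comparisons use the same 3 ND libraries. The groups of Apoa4 and Apoc3 did not overlap in either, which held for 8.3% of all genes in the higher direction in HLJDD against ND and 9.57% in HFD against ND. Between HLJDD and HFD limma called 0 of the 7 genes and 0.0% of all genes, with 186 genes at an unadjusted p under 0.05, and limma-voom on recovered reads also called 0 genes.

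**Figure D1:**
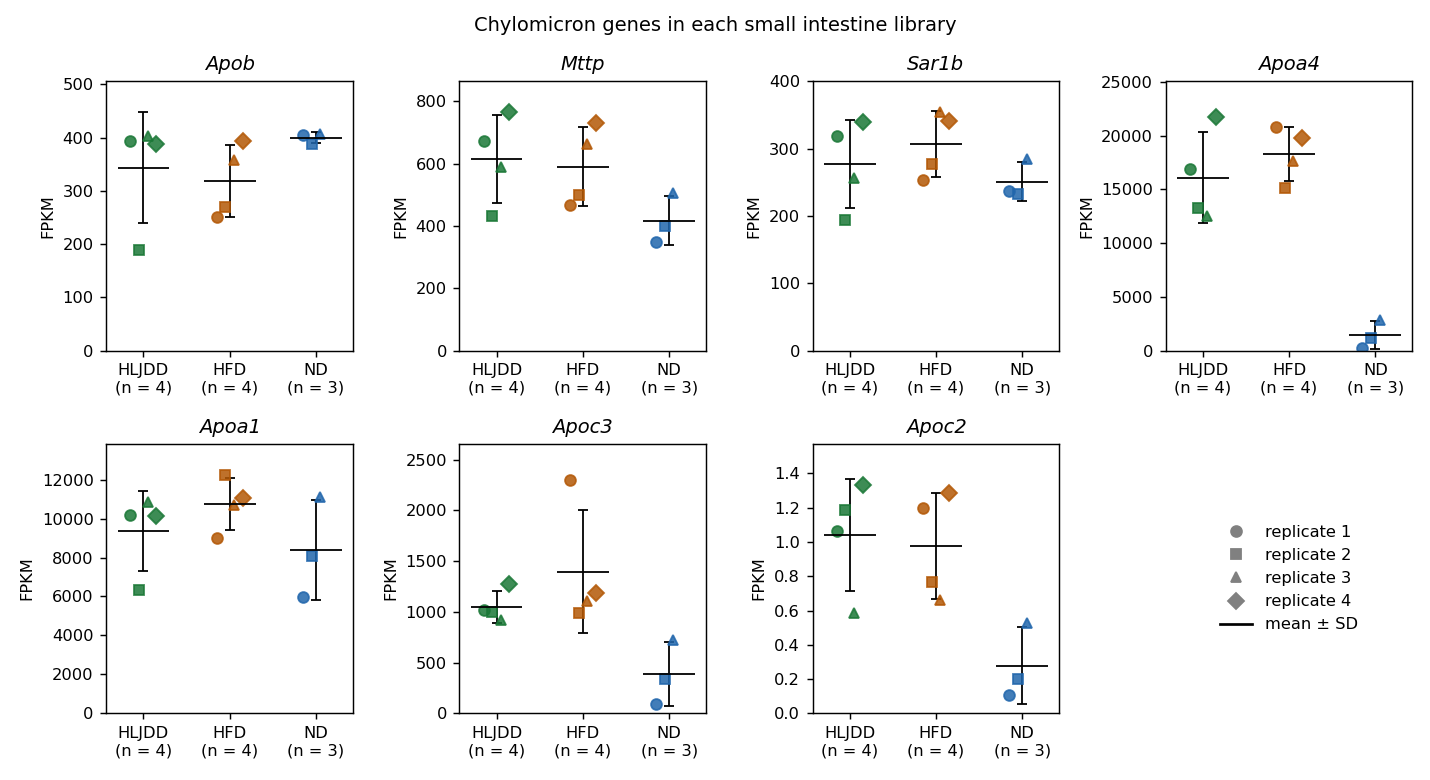
FPKM of each gene (vertical axis, from 0) in every library of HLJDD (n = 4), HFD (n = 4) and ND (n = 3), with the mean and SD. ND libraries lie below all others for Apoa4, Apoc3 and Apoc2, whereas Apob spans 189 to 404 FPKM in HLJDD and is tight in ND.

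Apob encodes apolipoprotein B, the non-exchangeable core of the particle, which enterocytes make mostly in its short edited form. The gene lies at chr12:7977629-8016839 on the plus strand (RefSeq, GRCm38.p6). It had 394, 189, 404 and 388 FPKM in HLJDD, 251, 270, 358 and 393 FPKM in HFD and 405, 388 and 407 FPKM in ND. HLJDD replicate 2 and HFD replicate 1 were the lowest of their groups, and the groups overlapped. The mean was 344 ± 103 FPKM in HLJDD and 318 ± 68.2 FPKM in HFD (SD, n = 4 each), and 399.9 ± 10.6 FPKM in ND (SD, n = 3). The log2 change was -0.35 for HFD against ND (SE 0.26, limma adjusted p = 0.326) and -0.28 for HLJDD against ND (SE 0.26, limma adjusted p = 0.50). Apob was thus the 1 gene of the 7 with a negative change in both, and its 95% intervals of -0.92 to 0.21 and -0.85 to 0.29 include 0. Without the 2 libraries of high mitochondrial share the changes were -0.25 and -0.02. The same 2 libraries had the lowest summed enterocyte markers, 4007 FPKM in HLJDD replicate 2 and 4710 FPKM in HFD replicate 1. FPKM is scaled to the library total, so a high mitochondrial share also lowers the FPKM of other genes. After median-ratio scaling Apob was 249 in HLJDD replicate 2 and 329 in HFD replicate 1. In bulk tissue, fewer cells of a type and less RNA per cell cannot be told apart.

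Mttp encodes the large subunit of the microsomal triglyceride transfer protein (chr3:138089855-138143418, minus strand). It had 674, 433, 589 and 765 FPKM in HLJDD, 468, 501, 664 and 730 FPKM in HFD and 349, 399 and 505 FPKM in ND. The lowest HLJDD library and the 2 lowest HFD libraries lay below ND replicate 3, so the groups overlapped. Means were 615 ± 141 FPKM in HLJDD, 591 ± 126 FPKM in HFD (n = 4 each) and 418 ± 79.5 FPKM in ND (n = 3). The log2 change was 0.54 for HLJDD against ND (SE 0.23, limma adjusted p = 0.143) and 0.49 for HFD against ND (SE 0.23, limma adjusted p = 0.142). After median-ratio scaling the groups separated, at 513 to 757 in HLJDD, 497 to 733 in HFD and 312 to 472 in ND, as they did in the higher direction for 18.0% of all genes in HLJDD against ND and 18.2% in HFD against ND. Mttp then rose by 0.71 in HLJDD against ND (limma adjusted p = 0.0249) and by 0.74 in HFD against ND (limma adjusted p = 0.0179). It also passed without the 2 libraries of high mitochondrial share, by 0.70 in HLJDD against ND (limma adjusted p = 0.0251) and 0.59 in HFD against ND (limma adjusted p = 0.0376), and in HLJDD against ND without HLJDD replicate 2 alone (limma adjusted p = 0.0452). In GENCODE M21, Gm43691 and Trmt10a overlap Mttp on the opposite strand, although Trmt10a starts beyond the RefSeq span given above. The strand setting of the counting is not given in the sources used here, so part of the Mttp reads is uncertain. The size of that part was not measured.

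Sar1b encodes the GTPase whose loss in humans causes chylomicron retention disease (chr11:51763663-51791953, plus strand). It had 319, 194, 257 and 339 FPKM in HLJDD, 254, 278, 355 and 342 FPKM in HFD and 237, 232 and 285 FPKM in ND. All 3 groups overlapped, with HLJDD replicate 2 the lowest library of all. Means were 277 ± 65.5 FPKM in HLJDD, 307 ± 49.0 FPKM in HFD (n = 4 each) and 251 ± 28.9 FPKM in ND (n = 3). The log2 change was 0.12 in HLJDD against ND (SE 0.21, limma adjusted p = 0.739) and 0.28 in HFD against ND (SE 0.21, limma adjusted p = 0.322). With 1 library left out at a time it ranged from 0.0078 to 0.275 in HLJDD against ND, and from 0.206 to 0.373 in HFD against ND. After scaling, the HFD libraries (275 to 355) lay above all ND libraries (204 to 266), with a log2 change of 0.52 (limma adjusted p = 0.0351). Its close relative Sar1a stood far lower, at 17.8 ± 2.97 FPKM in HLJDD, 16.6 ± 1.58 FPKM in HFD and 18.9 ± 1.03 FPKM in ND, and did not pass in any comparison.

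Within a library, ratios of FPKM cancel the library total. The Mttp to Apob ratio was 1.71, 2.29, 1.46 and 1.97 in HLJDD, 1.863, 1.853, 1.854 and 1.859 in HFD and 0.863, 1.03 and 1.24 in ND. All 8 HLJDD and HFD libraries lay above the 3 ND libraries. The 4 HFD libraries had an SD of 0.0045, against 0.357 in HLJDD and 0.189 in ND, a closeness picked out after the values were seen. The Sar1b to Mttp ratio ran the other way, at 0.437 to 0.473 in HLJDD, 0.468 to 0.554 in HFD and 0.564 to 0.679 in ND. These ratios were not tested and show only that the genes did not change in proportion.

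**Figure D2:**
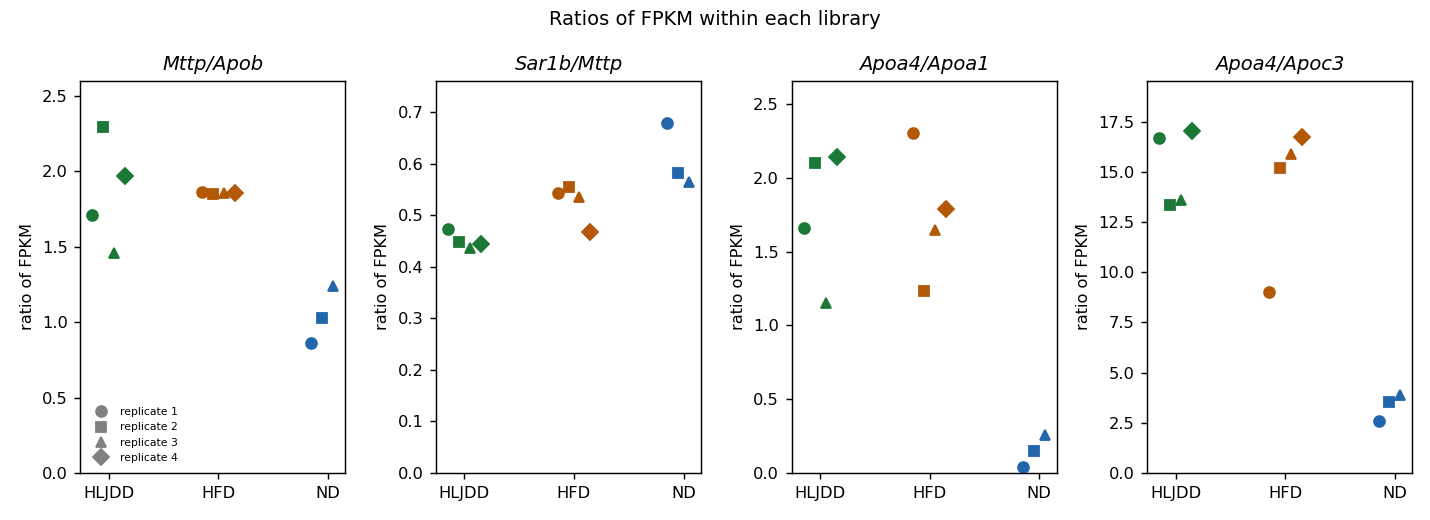
Ratios of FPKM between pairs of the genes (vertical axis, from 0) in each library of HLJDD, HFD and ND, with 1 marker per replicate. The HFD libraries hold 1 Mttp to Apob ratio near 1.86, and the Apoa4 to Apoa1 ratio is below 0.26 in ND and above 1.15 elsewhere.

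Apoa4 encodes apolipoprotein A-IV, made by enterocytes during fat absorption and carried into lymph on chylomicrons. The gene lies at chr9:46240844-46243458 on the plus strand, in a cluster with Apoa1, Apoc3 and Apoa5. Its level set it apart from the other genes, so the 250 bases before its start are shown beside those of Apoa1, which lies 10.4 kb away and changed less, and of Apob. Sequences are RefSeq's for GRCm38.p6, read 5′ to 3′ on the gene's strand, at chr9:46240594-46240843, chr9:46228380-46228629 and chr12:7977427-7977676, all on the plus strand. The start that the promoter table uses for Apob lies inside the gene span given above, so its window covers the first bases of that span, and distances for Apob are from the table's start.
Apoa4: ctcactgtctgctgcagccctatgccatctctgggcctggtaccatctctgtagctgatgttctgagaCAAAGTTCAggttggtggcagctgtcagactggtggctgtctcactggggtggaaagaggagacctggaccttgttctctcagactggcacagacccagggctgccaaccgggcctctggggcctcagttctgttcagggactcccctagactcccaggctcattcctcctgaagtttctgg
Apoa1: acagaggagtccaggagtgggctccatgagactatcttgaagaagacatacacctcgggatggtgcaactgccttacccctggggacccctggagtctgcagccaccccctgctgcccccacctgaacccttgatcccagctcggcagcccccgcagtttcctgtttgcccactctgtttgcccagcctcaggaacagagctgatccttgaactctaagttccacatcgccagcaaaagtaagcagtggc
Apob: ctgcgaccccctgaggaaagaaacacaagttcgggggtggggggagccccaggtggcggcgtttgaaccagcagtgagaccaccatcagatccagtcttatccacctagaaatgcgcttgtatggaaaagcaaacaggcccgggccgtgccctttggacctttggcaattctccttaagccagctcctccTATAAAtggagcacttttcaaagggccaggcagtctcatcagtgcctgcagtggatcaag
Capitals mark matches to a motif searched on both strands in all 32851 promoters of the table. In Apoa4 the capitals are CAAAGTTCA, 182 to 174 bases before the start, a string close to the known CAAAGTCCA motif of the nuclear receptor HNF4, held by 0.335% of promoters. It was added to the search after the sequences were seen. Other near matches were not searched for, such as GGACCTTTG in the Apob window, which is close to TGACCTTTG. In Apob the capitals are TATAAA, 60 to 55 bases before the start, held by 12.4% of promoters. The motifs CAAAGTCCA (0.384% of promoters), TGACCTTTG (0.426%) and AGATAA (9.99%) were in none of the windows of the 6 genes that had an entry, and CCAAT (33.8%) was in that of Sar1b only. A match is a string of letters, not a site shown to be bound. Apoc3 had no entry.

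Apoa4 had 16909, 13286, 12489 and 21715 FPKM in HLJDD, 20758, 15115, 17618 and 19813 FPKM in HFD, against 245, 1208 and 2837 FPKM in ND. Every HLJDD and HFD library lay above every ND library, the nearest pair being HLJDD replicate 3 and ND replicate 3. The ND libraries themselves spanned an 11.6-fold range, against 1.74-fold in HLJDD and 1.37-fold in HFD. Apoa4 rose by 4.05 on the log2 scale in HLJDD against ND (SE 0.59, 95% interval 2.76 to 5.35, limma adjusted p = 0.0015) and by 4.27 in HFD against ND (SE 0.59, 95% interval 2.97 to 5.56, limma adjusted p = 0.00096). Ranked by log2 change it stood 3 and 1 among the 10764 genes. The exact two-sided permutation p was 0.0286 in each, the smallest that 35 arrangements can give. The call held without any 1 of the 11 libraries, with log2 changes of 3.08 to 4.85 in HLJDD against ND and 3.30 to 5.06 in HFD against ND. The lowest of these, 3.08 and 3.30, came from leaving out ND replicate 1.

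Leaving mitochondrial transcripts aside, Apoa4 took 4.03 ± 0.90% of the summed FPKM in HLJDD, 4.55 ± 0.89% in HFD and 0.333 ± 0.296% in ND. The 7 genes together took 6.91 ± 0.89% in HLJDD, 7.84 ± 0.93% in HFD and 2.67 ± 0.89% in ND. Apoa4 ranked 1 or 2 among all nuclear genes in every HLJDD and HFD library and 9 to 256 in ND. In reads it reached 3.62% of an HLJDD library, so its own rise takes a visible part of the total against which the others are scaled. Scaling to equal sums with the 7 genes and the mitochondrial transcripts left out gave Mttp a log2 change of 0.67 in HLJDD against ND and 0.61 in HFD against ND.

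Apoa1 encodes the main protein of high-density lipoprotein, which the gut also places on new chylomicrons (chr9:46228630-46230469, plus strand). It had 10179, 6317, 10851 and 10139 FPKM in HLJDD, 9013, 12259, 10686 and 11063 FPKM in HFD and 5977, 8092 and 11085 FPKM in ND. The groups overlapped: HLJDD replicate 2 lay between the 2 lowest ND libraries, and ND replicate 3 lay above 3 of the 4 HFD libraries. Means were 9372 ± 2062 FPKM in HLJDD, 10755 ± 1341 FPKM in HFD (n = 4 each) and 8385 ± 2566 FPKM in ND (n = 3). The log2 change was 0.17 in HLJDD against ND (SE 0.25, limma adjusted p = 0.677) and 0.40 in HFD against ND (SE 0.25, limma adjusted p = 0.260). With 1 library left out at a time it ranged from -0.0464 to 0.399 in HLJDD against ND, and from 0.175 to 0.620 in HFD against ND. After scaling, HFD (10672 to 12158) lay above ND (5342 to 10364), a log2 change of 0.64 (limma adjusted p = 0.0436). The Apoa4 to Apoa1 ratio was 1.15 to 2.14 in HLJDD, 1.23 to 2.30 in HFD and 0.0410 to 0.256 in ND. In ND Apoa1 was the highest of the 7 genes in each library, and in all 8 others Apoa4 was.

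Apoc3 encodes an apolipoprotein that slows the clearance of triglyceride-rich particles (chr9:46233050-46235636, minus strand, between Apoa1 and Apoa4). It had 1014, 995, 918 and 1274 FPKM in HLJDD, 2303, 993, 1109 and 1184 FPKM in HFD and 95.6, 342 and 726 FPKM in ND. All ND libraries lay below all others, and HFD replicate 1 lay far above its group. Means were 1050.3 ± 155 FPKM in HLJDD, 1398 ± 609 FPKM in HFD (n = 4 each) and 388 ± 318 FPKM in ND (n = 3). Apoc3 rose by 1.85 on the log2 scale in HLJDD against ND (SE 0.52, 95% interval 0.72 to 2.99, limma adjusted p = 0.0388) and by 2.19 in HFD against ND (SE 0.52, 95% interval 1.05 to 3.33, limma adjusted p = 0.0159). Exact permutation p was 0.0286 for each. The HFD call held without any 1 library (adjusted p = 0.0028 to 0.0480 by limma), but it ended with no filter on low values (limma adjusted p = 0.0558) and with the distal gut score described below as a covariate, where the change was -0.43 (limma adjusted p = 1.00). Without HFD replicate 1 the change was 1.92 (limma adjusted p = 0.0403). The summed level of the 9 listed hepatocyte markers also peaked in HFD replicate 1. It was 10.1 FPKM there, against 1.55 to 4.63 FPKM in the other 10 libraries. Alb stood at 3.06 FPKM there, against 0.193 to 0.381 FPKM in the other 10. Ttr and F2 did not peak there. Ttr had 2.29 FPKM in HFD replicate 1 and 3.60 FPKM in HFD replicate 4. F2 had 0.164 FPKM in HFD replicate 1 and 0.184 FPKM in HLJDD replicate 1. Of the 9, Fga, Fgb, Fgg, Ahsg, F2 and Apoh were below 1 FPKM in every library. The part of hepatocyte markers in the Apoc3 level was not tested. The HLJDD call ended in 7 of 11 fits that left out 1 library, namely any HLJDD replicate (limma adjusted p = 0.0514 to 0.102), HFD replicate 3 (limma adjusted p = 0.0538), ND replicate 1 (0.136) or ND replicate 2 (0.0991), and with a replicate block (limma adjusted p = 0.0908). It also ended with no filter (limma adjusted p = 0.106) and with the distal score, where the change was -0.99. Without ND replicate 1 the log2 change was 1.06 in HLJDD against ND and 1.40 in HFD against ND.

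Apoc2 encodes the activator of lipoprotein lipase (chr7:19671579-19677941, minus strand), and it was scarce in these libraries. It had 1.06, 1.18, 0.584 and 1.33 FPKM in HLJDD, 1.20, 0.765, 0.660 and 1.29 FPKM in HFD and 0.105, 0.201 and 0.530 FPKM in ND. These levels rest on 18 to 40 reads per library in HLJDD, 19 to 39 in HFD and 3 to 16 in ND, and the lowest HLJDD and HFD libraries lay just above ND replicate 3. Means were 1.04 ± 0.32 FPKM in HLJDD, 0.98 ± 0.31 FPKM in HFD (n = 4 each) and 0.28 ± 0.22 FPKM in ND (n = 3). The difference was 0.67 on the log2(FPKM + 1) scale in HLJDD against ND (SE 0.18, limma adjusted p = 0.0292) and 0.63 in HFD against ND (SE 0.18, limma adjusted p = 0.0326), a scale that understates changes at this level. The gene passed the filter only through HLJDD and HFD libraries, so these p-values are not support for a rise, and with no filter the limma adjusted p was 0.0633 in HLJDD against ND and 0.0687 in HFD against ND. The exact two-sided permutation p was 0.0571 and 0.0286. The ratio of group means was 3.74 and 3.51, and limma-voom on the recovered reads gave log2 changes of 2.04 and 1.96. Each call ended in 5 of 11 fits that left out 1 library. For HLJDD these were HLJDD replicates 1, 2 and 4 and ND replicates 1 and 2 (limma adjusted p = 0.0514 to 0.152), and for HFD they were HLJDD replicate 1, HFD replicates 1 and 4 and ND replicates 1 and 2 (limma adjusted p = 0.0501 to 0.147). The replicate block also ended both calls (limma adjusted p = 0.101 and 0.0929). The annotated gene Gm44805 covers all of Apoc2 on the same strand, so its reads may have been split or dropped in counting.

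**Figure D3:**
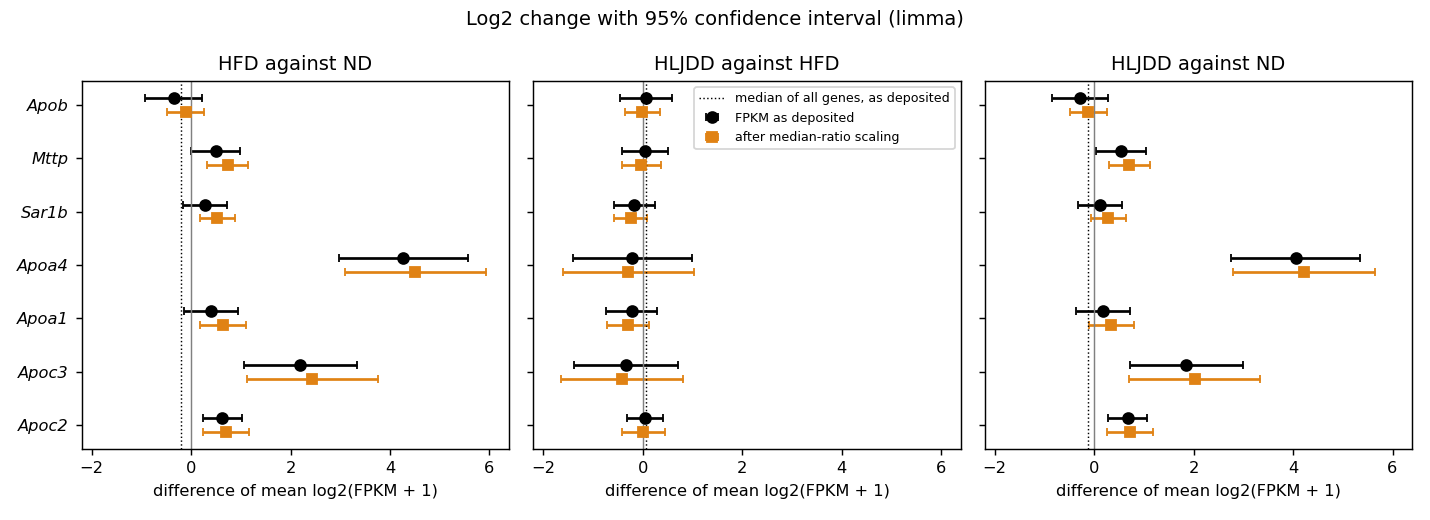
Log2 change of each gene with its 95% interval (horizontal axis) in the 3 comparisons, with FPKM as deposited (circles) and after median-ratio scaling (squares), and the median of all genes as a dotted line. Apoa4 lies near 4 against ND, and every interval of HLJDD against HFD includes 0.

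The order of levels changed with the group. In HLJDD and HFD the means ran Apoa4, Apoa1, Apoc3, Mttp, Apob, Sar1b and Apoc2 from high to low. In ND they ran Apoa1, Apoa4, Mttp, Apob, Apoc3, Sar1b and Apoc2, and Mttp, Apob and Apoc3 (418, 399.9 and 388 FPKM) did not differ beyond their spread. In HFD, Apob and Sar1b (318 and 307 FPKM) did not either. The Apoa4 to Apoc3 ratio was 13.3 to 17.0 in HLJDD, 9.01 to 16.7 in HFD and 2.57 to 3.91 in ND, so these cluster neighbours were not raised in proportion.

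In the cluster on chromosome 9, only Apoa1, Apoc3 and Apoa4 were abundant. Apoa5, whose product favours lipolysis and is made mainly in liver, did not pass the filter, at 0.530 ± 0.309 FPKM in HLJDD, 0.322 ± 0.165 FPKM in HFD and 0.0255 ± 0.0127 FPKM in ND. The next genes, Zpr1 and Bud13 on one side and Sik3 on the other, stood between 1.32 and 5.76 FPKM in every library and passed in no comparison. Gm47528 and Gm10680 overlap Apoa4 on the opposite strand. Beside Apoc2, Apoc4 lies 142 bases away and had 1.04 ± 0.50 FPKM in HLJDD, 1.78 ± 0.80 FPKM in HFD and 0.158 ± 0.089 FPKM in ND. On the other side of Apoc2, Relb, a subunit of NF-kappaB, fell by 0.50 in HLJDD against ND (limma adjusted p = 0.0254) and by 0.54 in HFD against ND (limma adjusted p = 0.0165). The first Relb call ended without HLJDD replicates 1 or 4 or any ND library (limma adjusted p = 0.0570 to 0.116). The second ended without HFD replicate 3 or ND replicates 2 or 3 (limma adjusted p = 0.0512 to 0.0823). Past Mttp, Adh1, an alcohol dehydrogenase 134 kb away, rose by 3.52 in HLJDD against ND (limma adjusted p = 0.0029) and by 3.72 in HFD against ND (limma adjusted p = 0.0018). Its neighbour Adh7 had 2.57 ± 1.45 FPKM in HLJDD, 3.45 ± 1.08 FPKM in HFD and 0.275 ± 0.153 FPKM in ND. Dapp1, on the other side of Mttp, rose by 0.49 in HLJDD against ND (limma adjusted p = 0.0286). Its call ended without HLJDD replicates 1 or 4 or any ND library (limma adjusted p = 0.0716 to 0.115). Near Sar1b, Sec24a, a cargo adaptor of the same coat, lies 6.5 kb away and rose by 0.44 in HFD against ND (limma adjusted p = 0.0401). Its call ended without HLJDD replicate 1, any HFD library or any ND library (limma adjusted p = 0.0543 to 0.136).

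**Figure D4:**
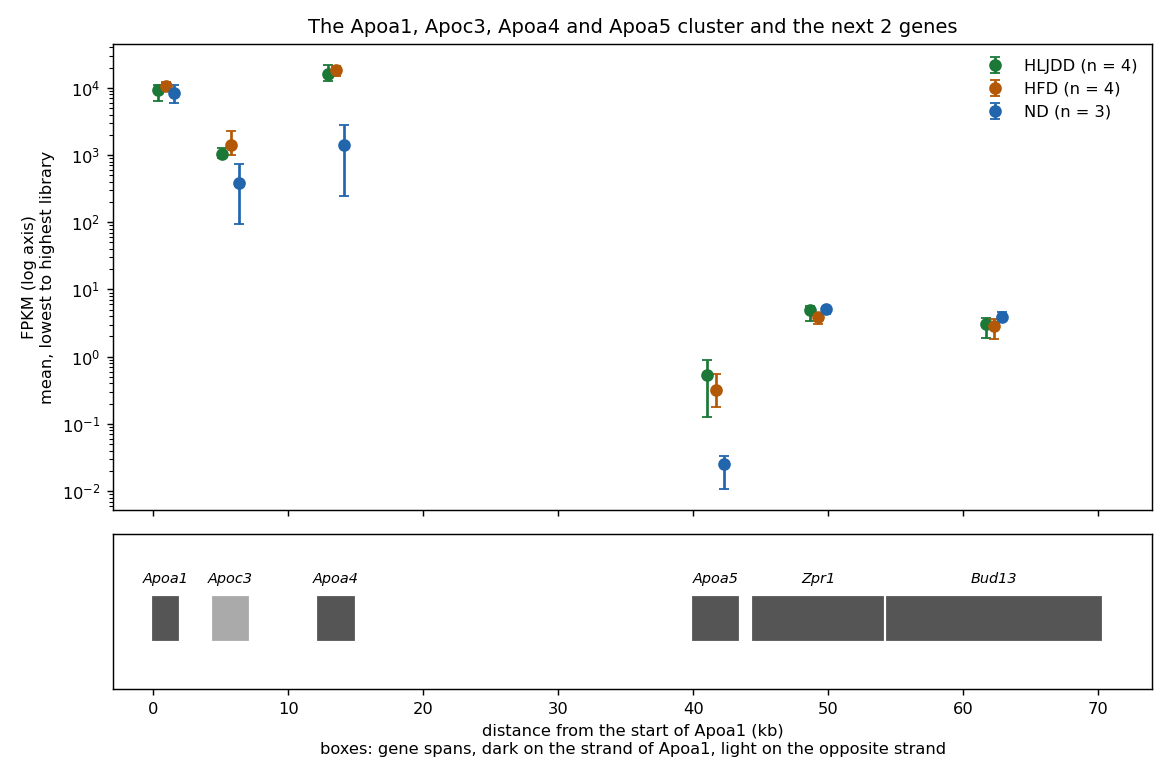
Mean FPKM on a log axis, with lines from the lowest to the highest library, for genes of the Apoa1 cluster placed by distance in kb from the start of Apoa1, in HLJDD, HFD (n = 4 each) and ND (n = 3). The groups lie far apart at Apoa4, overlap at Apoa1 and stand near each other at Zpr1 and Bud13.

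The comparison of HLJDD with HFD sets the group with the decoction's initials against HFD. None of the 7 genes passed, and their 95% intervals bound the change. For Apoa4 the log2 change was -0.21 (interval -1.41 to 0.99) and for Apoc3 -0.34 (-1.39 to 0.72), so a change of 1 in either was not detectable with this spread. The others were bounded more closely, at -0.22 for Apoa1 (-0.73 to 0.29), 0.07 for Apob (-0.45 to 0.60), 0.05 for Mttp (-0.41 to 0.51) and -0.17 for Sar1b (-0.58 to 0.25), each with a limma adjusted p of 0.999. For Apoc2 it was 0.04 (-0.31 to 0.40), an interval that the added 1 FPKM narrows at levels this low. As deposited, no gene of the 7 had groups that did not overlap, against 1.03% of all genes. After scaling, Apoa1 was the only one, with 8328 to 10024 in HLJDD and 10672 to 12158 in HFD, where 3.68% of all genes did not overlap and 1.66% were lower in this way. Its scaled log2 change was -0.30 (95% interval -0.72 to 0.12, limma adjusted p = 0.835). The direction of Apoa1 and Apoa4 flipped under quantile normalization (0.08 and 0.05).

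Levels also moved with gut region markers. A score of 9 distal small intestine genes (mean log2(FPKM + 1) of Fabp6, Slc10a2, Pyy, Nts, Guca2a, Cubn, Slc51b, Osr2 and Tmigd1) was 3.41 to 5.01 in HLJDD, 3.97 to 4.92 in HFD and 8.28, 7.93 and 6.65 in ND. The 6 proximal genes (Fabp1, Rbp2, Lct, Gata4, Slc46a1 and Cyp3a11) summed to 17113 to 28648 FPKM in HLJDD, 20439 to 28186 FPKM in HFD and 1537 to 7409 FPKM in ND. Fabp1 and Rbp2 made up most of these sums. Lct and Cyp3a11 overlapped between the groups, as did Cubn of the distal list. Mean Cyp3a11 was highest in ND, at 226 FPKM in HLJDD, 240 FPKM in HFD and 262 FPKM in ND. ND replicate 3, with the lowest distal score of its group and Fabp6 at 397 FPKM against 9821 and 6702 FPKM in ND replicates 1 and 2, was the highest ND library for 7 of the 7 genes. With the score as a covariate limma called 0 genes in either comparison with ND, and the log2 change of Apoa4 was 0.70 in HLJDD against ND and 1.17 in HFD against ND. The scores of ND and of the other 8 libraries do not overlap, so region and group cannot be told apart. The summed level of 5 goblet cell genes (Muc2, Tff3, Clca1, Fcgbp and Zg16) also differed without overlap. It was 2953 to 3774 FPKM in HLJDD, 3995 to 4564 FPKM in HFD and 1123 to 2114 FPKM in ND. Zg16 and Tff3 made up most of this sum, and the 5 genes did not all move alike. Clca1 was higher in ND (54.2 to 57.9 FPKM) than in HLJDD (33.8 to 53.1 FPKM), and Muc2 overlapped between the groups. Of 5 listed leukocyte genes, the B cell gene Cd79a had 2.19 to 48.7 FPKM in HLJDD and 1.31 to 99.3 FPKM in HFD. In ND it had 0.752 to 1.47 FPKM, with HFD replicate 4 inside that range. Mean Ms4a1 and Ptprc were also lowest in ND, but mean Itgam and Cd3e were highest there. Mean Itgam was 1.98 FPKM in HLJDD, 1.91 FPKM in HFD and 2.61 FPKM in ND. For Cd3e the means were 0.37, 0.53 and 0.71 FPKM in the same order. The part of goblet cells and leukocytes in the changes against ND was not tested.

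**Figure D5:**
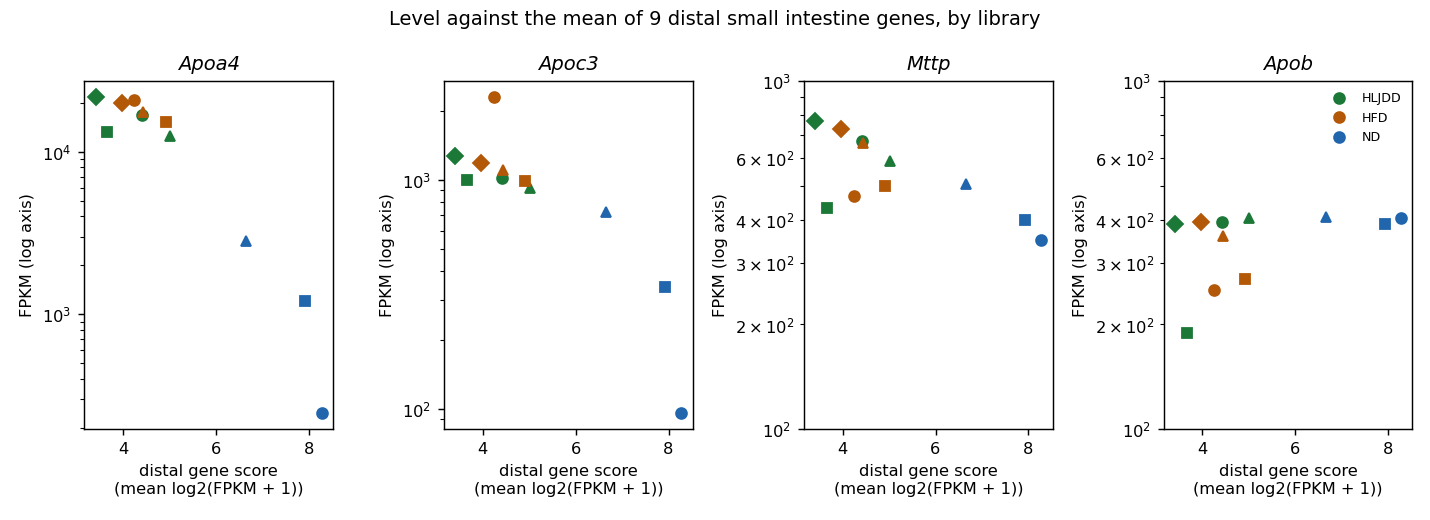
FPKM on a log axis of Apoa4, Apoc3, Mttp and Apob against the distal gene score (mean log2(FPKM + 1) of 9 genes) in each library, by group, with the replicate as the marker shape. The ND libraries have scores of 6.65 to 8.28 and the other 8 of 3.41 to 5.01, with no library between.

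Genes with the most similar profile were found by the root mean square difference of centred log2(FPKM + 1) over the 11 libraries. For Apoa4 they were Enpp3 (0.490), Aadac (0.501), Adh6a (0.542) and 2010001M07Rik (0.580). For Mttp they were Surf4 (0.0619), Ak3 (0.0816), Isoc2a (0.0839) and Tmem139 (0.0846), Surf4 being a cargo receptor of COPII vesicles known to help lipoproteins leave the endoplasmic reticulum. For Sar1b they were Cgrrf1 (0.0990), Tm6sf2 (0.10), Sema6a (0.106) and Ppm1a (0.111), and for Apob Pttg1ip (0.0759), Pex14 (0.0775), Slc25a15 (0.0807) and Sdf4 (0.0832). Among the 7 genes the closest pair was Mttp and Sar1b (0.191) and the farthest Apoa4 and Apob (2.16).

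Other genes of the pathway were taken from 6 lists of 81 genes, of which 71 passed the filter. In HFD against ND limma called 20 of the 71 (18 of 69 without Apoa2 and Apoc4, which reached 1 FPKM in no ND library), beside 16.6% of all genes, and 6 of these kept their call in every fit without 1 library (Fabp1, Apoc4, Gata6, Hnf4a, Angptl4 and Angptl8), while the other 14 lost it in at least 1. In HLJDD against ND it called 16 (15 of the 69), beside 11.9% of all genes, and 3 kept it (Fabp1, Lpl and Angptl8), while the other 13 did not. Between HLJDD and HFD it called 0 in every list. The counts by direction given next stand beside 4.1% of all genes higher and 7.79% lower in HLJDD against ND, and 5.06% higher and 11.5% lower in HFD against ND. After scaling these shares were 9.39% and 9.88% in HLJDD against ND, and 12.6% and 12.5% in HFD against ND.

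Of 8 further apolipoprotein genes 3 passed the filter, Apoa2, Apoc4 and Apoe. Apoa2 and Apoc4 were below 1 FPKM in every ND library and passed only through the groups where they are high, so their calls are no support for a rise. Apoa2, a second protein of high-density lipoprotein, had 2.75 ± 1.96 FPKM in HLJDD, 4.14 ± 2.18 FPKM in HFD and 0.651 ± 0.328 FPKM in ND. Its log2 difference in HFD against ND was 1.55 (limma adjusted p = 0.0254), and the call ended without HFD replicate 1 (limma adjusted p = 0.0622), ND replicate 1 (0.118) or ND replicate 2 (0.0737). For Apoc4 the log2 difference was 0.79 in HLJDD against ND (limma adjusted p = 0.0447) and 1.23 in HFD against ND (limma adjusted p = 0.0045). The call in HLJDD against ND ended in 8 of the 11 fits without 1 library, those without HLJDD replicates 1, 2 and 4, HFD replicates 2 and 3 or any ND library (limma adjusted p = 0.0529 to 0.177), and after scaling (0.0634). Apoe, made by many cell types, had 23.5 ± 8.31 FPKM in HLJDD, 22.5 ± 7.72 FPKM in HFD and 14.5 ± 2.93 FPKM in ND and passed in neither.

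Of the 18 genes that supply and load triglyceride, 3 rose and 0 fell in each comparison with ND (Fabp1, Dgat2 and Plin2). The list's median log2 change was 0.08 in HLJDD against ND and 0.11 in HFD against ND, beside -0.13 and -0.20 over all genes, and after scaling 7 and 9 rose. Fabp1, the liver-type fatty acid binding protein that is also on the proximal list, had 10857 ± 2797 FPKM in HLJDD, 12448 ± 1508 FPKM in HFD and 2269 ± 1978 FPKM in ND. It rose by 2.73 in HLJDD against ND (SE 0.54, limma adjusted p = 0.0076) and by 2.96 in HFD against ND (SE 0.54, limma adjusted p = 0.0041). P4hb, the smaller subunit of the transfer protein, had 1168 ± 286 FPKM in HLJDD, 1159 ± 293 FPKM in HFD and 658 ± 138 FPKM in ND, and passed after scaling (limma adjusted p = 0.0096 in HLJDD against ND and 0.0058 in HFD against ND).

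Of 20 COPII genes, 3 rose and 0 fell in HLJDD against ND, while HFD against ND had 3 higher and 1 lower. After scaling 8 were higher and 0 lower in HLJDD against ND, with 10 and 1 in HFD against ND. The median log2 change was 0.23 in HLJDD against ND and 0.24 in HFD against ND. Sec24d, a cargo adaptor, rose by 0.99 in HLJDD against ND (SE 0.22, limma adjusted p = 0.0145) and by 0.92 in HFD against ND (SE 0.22, limma adjusted p = 0.0169), calls that ended without ND replicate 1 (limma adjusted p = 0.0882 and 0.0961) or ND replicate 2 (0.0587 and 0.0650). Surf4, at 214 ± 43.2 FPKM in HLJDD, 204 ± 36.5 FPKM in HFD and 144 ± 24.4 FPKM in ND, passed after scaling (limma adjusted p = 0.0146 and 0.0111).

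Of the 4 genes of Apob mRNA editing, 1 rose and 0 fell in each comparison with ND, before and after scaling, with a median log2 change of -0.29 in HLJDD against ND and -0.31 in HFD against ND. The 1 that rose was Apobec1, the deaminase that makes the short form of the Apob product, at 19.1 ± 3.4 FPKM in HLJDD, 19.2 ± 3.54 FPKM in HFD and 12.2 ± 0.40 FPKM in ND. It rose by 0.59 in HLJDD against ND (limma adjusted p = 0.0385) and by 0.59 in HFD against ND (limma adjusted p = 0.0311). The first call ended without any of HLJDD replicates 1 and 4, HFD replicate 3 or the 3 ND libraries (limma adjusted p = 0.0601 to 0.142), and the second without HFD replicates 3 or 4 or any ND library (limma adjusted p = 0.0658 to 0.113).

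Of 16 transcription factors, 3 rose and 2 fell in HLJDD against ND, and 4 rose and 3 fell in HFD against ND, with median log2 changes of -0.10 and -0.26. After scaling 5 rose and 3 fell in HLJDD against ND, with 6 and 3 in HFD against ND. Hnf4a, a nuclear receptor known to drive apolipoprotein genes, was lower where Apoa4 was higher, at 138 ± 16.6 FPKM in HLJDD, 119.6 ± 12.3 FPKM in HFD and 198 ± 5.32 FPKM in ND, and fell by 0.73 in HFD against ND (SE 0.14, limma adjusted p = 0.0060). Gata6 rose by 0.83 in HFD against ND (SE 0.16, limma adjusted p = 0.0055). Creb3l3, known to act on Apoa4 in liver and gut, had 291 ± 66.9 FPKM in HLJDD, 327 ± 59.7 FPKM in HFD and 190.4 ± 59.9 FPKM in ND. Its call in HFD against ND (log2 change 0.80, limma adjusted p = 0.0441) ended without any of HLJDD replicates 1 and 3, HFD replicates 1, 3 and 4 or ND replicates 1 and 2 (limma adjusted p = 0.0541 to 0.193).

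Of 10 genes of lipoprotein clearance, 2 rose and 1 fell in HLJDD against ND, while HFD against ND had 1 higher and 2 lower, with median log2 changes of 0.08 and -0.17. After scaling 3 rose and 1 fell in each. Angptl8, a regulator of lipoprotein lipase activity, rose by 1.04 in HLJDD against ND (SE 0.21, limma adjusted p = 0.0075) and by 1.03 in HFD against ND (SE 0.21, limma adjusted p = 0.0065). Angptl4, an inhibitor of that lipase, fell by 1.20 in HFD against ND (SE 0.21, limma adjusted p = 0.0029), with 6.67 ± 0.28 FPKM in HFD and 17.2 ± 5.64 FPKM in ND. Lpl, the lipase that Apoc2 activates, had 20.9 ± 9.92 FPKM in HLJDD, 8.42 ± 5.58 FPKM in HFD and 2.29 ± 0.50 FPKM in ND, and rose by 2.60 in HLJDD against ND (SE 0.49, limma adjusted p = 0.0056). The summed level of the 7 listed adipocyte markers was also highest in HLJDD, at 49.8 to 91.4 FPKM. It was 23.8 to 45.8 FPKM in HFD and 32.8 to 36.0 FPKM in ND, which overlapped. Lipe made up the largest part of the HFD and ND sums, at means of 23.2 and 21.9 FPKM. Cfd had a lower mean in HFD (4.70 FPKM) than in ND (8.95 FPKM), while the other listed genes had a higher one. Mean Adipoq was 5.28 FPKM in HFD and 1.65 FPKM in ND, with HFD replicate 1 (1.38 FPKM) inside the ND range. The part of adipocyte markers in the Lpl level was not tested.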

How the data were processed

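Per the labels' protocols, RNA came from a TRIzol extraction and the library kit was VAHTS Universal V6. Per the submitters' processing notes, fastp, HISAT2, HTSeq and R 3.2.0 were used with the mm10 build. Strand setting and annotation were not given in the sources used here. As deposited by the authors, values are FPKM per gene symbol. Each value is a whole multiple of what 1 read is worth, and whole reads were recovered for 24292 of 24294 symbols (99.99%, largest distance from a whole number 0.0019 reads).

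Libraries were grouped by title. Limma 3.58.1 in R 4.3.3 was run with a variance trend on log2(FPKM + 1), two-sided, over all 11 libraries in one fit, with Benjamini-Hochberg adjustment, after keeping the 10764 genes at 1 FPKM or more in at least 3 libraries. Single values were also tested by exact two-sided permutation (35 arrangements for 4 against 3, 70 for 4 against 4, smallest p 0.0286 in both). The scripts were tested on simulated data. The labels do not say whether replicate numbers pair the libraries, and the main fit has no replicate block. Deviations of same-numbered libraries correlated at -0.22 to 0.37 and not all above 0.1. With 3 or 4 libraries a group, this cannot decide whether they share an animal, cage or day. Alternatives were another pseudocount (0.1), other filters, 5 scalings, robust variances, library weights, 2-group fits, a replicate block, limma-voom on recovered reads, a distal gut score as covariate, and leaving out libraries.

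The genes and lists were chosen with earlier results of these data known. All 7 genes are described throughout. From each list, counts are given, with up to 4 genes of smallest adjusted p and genes with a role stated beside a member. The 4 genes of most similar profile and 2 neighbours per side were also looked up. Gene positions and promoter sequences are RefSeq's for GRCm38.p6, the assembly behind mm10. Python 3.11.15 was used for the rest.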

Additional observations from a re-analysis of the deposited data

Results flagged for a closer look

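In 3 groups of 4 libraries 1 library stood far from the others, by Dixon's gap over the range at the 95% level. Of 14 groups tested (7 genes in HLJDD and HFD), chance flags about 1 in 20. Apob was lowest in HLJDD replicate 2, at 189 FPKM (gap over range 0.928). Apoa1 was lowest in the same library, at 6317 FPKM (0.843). This library had the highest mitochondrial share, and after median-ratio scaling its Apoa1 was 8328. Apoc3 was highest in HFD replicate 1, at 2303 FPKM (0.854), the library with the highest hepatocyte marker sum.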

How the results depend on the processing

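The calls of Apoa4 against ND were lost under 1 alternative, the distal gut score as covariate. That setting called 0 genes and 0 of the 7 genes in both comparisons with ND. It turned Apoc2 (-0.40), Apoc3 (-0.43), Mttp (-0.11) and Sar1b (-0.0465) in HFD against ND, Apoa1 (-0.0210), Apob (0.0317), Apoc2 (-0.44), Apoc3 (-0.99), Mttp (-0.10) and Sar1b (-0.24) in HLJDD against ND, and Apoc2 (-0.0401) in HLJDD against HFD. Genes called in HFD against ND (1786) were 2695 with median-ratio scaling, 2804 with quantile normalization, 3053 with equal sums without the 50 most abundant genes, 2907 with equal sums without the 7 genes and mitochondrial transcripts, 7702 with a weight per library, and 3352 without the 2 libraries of high mitochondrial share. In HLJDD against ND (1279) they were 2074, 2297, 2133, 2028, 7082 and 2575 in the same order. The weights ran to extremes, so those calls carry little. In HLJDD against HFD the weights called 3807 genes and 1 of the 7 (Apoc2), and leaving out the 2 libraries called 1 gene. Of the 7, the weights called 6 in both comparisons with ND, no filter called 1 in both (Apoa4), and in HFD against ND median-ratio scaling called 6 and equal sums without the 50 called 5. The 6 under median-ratio scaling include Apoc2, and 5 were called without it. Counts of the 7 in this section may include Apoc2, which passed the filter only through HLJDD and HFD libraries. Its calls against ND are no support for a rise. Whether the numbers of the replicates pair the libraries is not known. With the replicate block 1080 genes were called in HFD against ND and 724 in HLJDD against ND, with 1 of the 7 in the second. In HLJDD against HFD, quantile normalization turned Apoa1 (0.0766) and Apoa4 (0.0478), and median-ratio scaling Apob (-0.0059) and Mttp (-0.0252). The weights turned Apob in HLJDD against ND (0.0071). Leaving out 1 library gave 664 to 3317 genes in HFD against ND (664 without ND replicate 1, 689 without ND replicate 2, 3317 without HLJDD replicate 2), 0 to 1 in HLJDD against HFD and 470 to 1696 in HLJDD against ND (470 without ND replicate 1, 493 without ND replicate 2, 678 without HLJDD replicate 4, 802 without HLJDD replicate 1). It gave 1 to 3 of the 7 in HLJDD against ND. The log2 change then ranged from -0.0330 to 0.337 for Apob, -0.0356 to 0.161 for Apoc2 and -0.0630 to 0.211 for Mttp in HLJDD against HFD, and from -0.0464 to 0.399 for Apoa1 in HLJDD against ND. The cause of these shifts was not tested. Apoc2 is limited by its 3 to 40 reads per library.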
